A study of Rattus norvegicus and Mus musculus with 9 samples.

Results

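Integrins are the receptors by which cells hold on to the extracellular matrix, and focal adhesions are the protein plaques that tie them to actin. The list examined here named 42 genes of integrin subunits, fibronectin and focal adhesion proteins, chosen by symbol. One probe set was taken per symbol, the one with the highest mean over the arrays of its table. Of the 42 genes, 35 were measured in the rat table among 14506 genes, 40 in the mouse table among 19938, and 33 in both. Itga3, Itga8, Itga9, Itgav, Tln2, Lims1 and Tns3 were not analysed here in rat cells, and Ptk2 and Nedd9 were not analysed here in mouse cells. No probe set with several symbols named a member.

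Total RNA was measured with 3 arrays each for mouse embryonic stem (ES) cells, rat ES cells and rat embryonic fibroblasts. The mouse ES cells were of strain C57/BL6 and grew in serum-containing GMEM (10% fetal bovine serum) to which leukaemia inhibitory factor (LIF) was added, and their feeder cells were taken off ahead of the RNA step. The rat ES cells were of strain DA and were grown in 3I, a medium whose contents the labels do not list, and the labels make no statement on feeders for them. The rat fibroblasts, also of strain DA, grew in GMEM with the same share of serum, and LIF is not named for them. No treatment, age or cell line name is given for any group, and nothing in the labels ties replicate arrays to separate cultures. The p-values therefore reflect spread among these arrays alone, and that spread may be technical. Cell type and medium differed together between the rat groups and cannot be told apart in any difference reported here.

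An integrin is a pair of an alpha and a beta chain, and the alpha chain largely sets which matrix protein is bound. Chains alpha 3, 6 and 7 bind laminins, alpha 1, 2, 10 and 11 bind collagens, and alpha 5, 8 and v recognise the RGD motif of fibronectin and vitronectin. Inside the cell, talin and kindlin bind the beta tail and switch the receptor on, vinculin and the complex of ILK, PINCH and parvin couple it to actin, and FAK and Src pass the signal on through docking proteins such as p130Cas. Fibroblasts on plastic in serum are known for large focal adhesions, whereas ES cells grow as compact colonies joined by E-cadherin.

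The labelled cell types were first set against their markers. Of 6 measured pluripotency markers, 6 were called higher in rat ES cells than in rat fibroblasts, and none lay below the array median on all mouse ES arrays. Of 10 fibroblast markers, 9 were called lower in rat ES cells. Of the 10, 4 (Pdgfra, Dcn, Lum and S100a4) lay below the array median on all 3 rat ES arrays. On all 3 fibroblast arrays, 2 of the 10 lay below it. In mouse ES cells, 3 of the 10 fibroblast markers lay below the array median on all 3 arrays. The summed linear signal of the 10 markers was 1746, 2254 and 2828 on rat ES arrays 1, 2 and 3, against 37861 to 39833 on the fibroblast arrays. Array medians were taken over all probe sets, with or without a symbol. They lay between 5.71 and 5.74 on the log2 scale in the rat table and between 4.75 and 4.77 in the mouse table. Itga11, whose rat ES signals sat at that median, had a mean percentile of 36.3 among the genes shared by both tables. A gene above the array median can thus be in the lower part of the named genes. Precision is limited by having 3 arrays a group. Of the other marker lists, 5 of 6 epithelial markers were called higher in rat ES cells, 1 of 6 endothelial markers higher and 1 lower, and 0 of 7 blood and platelet markers either way by limma. Their part in the differences that follow was not tested.

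Most of the measured adhesion genes stood lower in rat ES cells than in rat fibroblasts. A gene was called when limma gave a Benjamini-Hochberg adjusted p under 0.05 over all genes tested and the group means were 1 or more apart on the log2 scale, which is 2-fold. By this rule 19 of the 35 genes were lower in rat ES cells, where 10.1% of all genes tested were lower, and 2 were higher, where 10.6% of all genes were. The median log2 difference was -1.36 over the 35 genes and 0.00 over all 14506. In 29 of the 35 genes the rat ES arrays all lay on one side of the fibroblast arrays, as they did in 61.5% of all genes. Among the 19 lower genes, 7 were at least 8-fold lower. The genes that stood higher were Itga7, of a laminin receptor, and Parvb, a parvin.

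**Figure D1:**
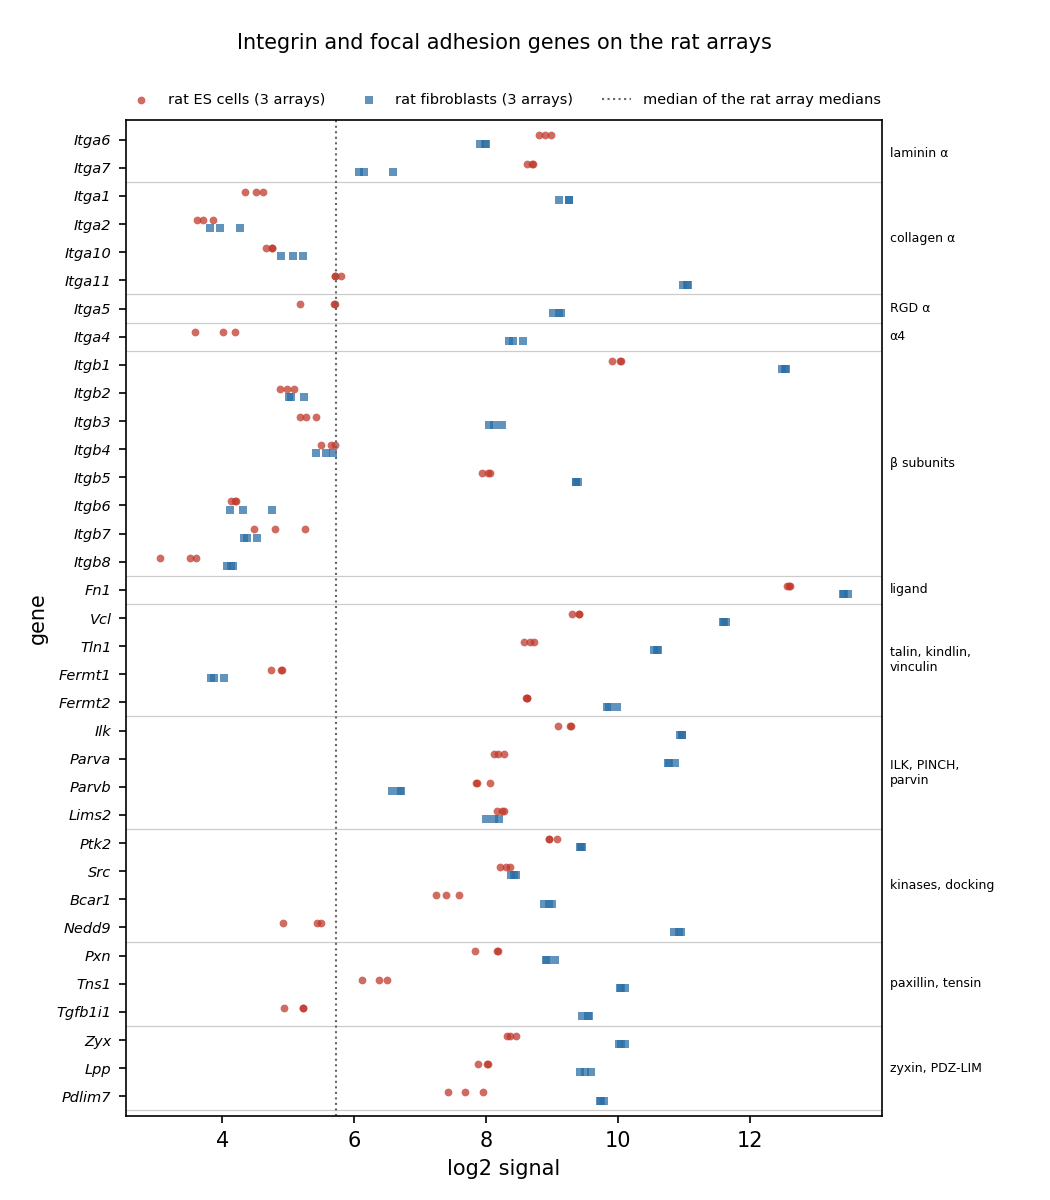
Log2 signal of the 35 measured genes on the 3 rat ES arrays (circles) and the 3 rat fibroblast arrays (squares), grouped by role, with the median of the rat array medians as a dotted line. Itga11, Nedd9 and Itga1 lie far apart between the groups, while Itga2, Itgb2, Itgb4, Itgb6, Itgb7 and Lims2 overlap.

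Of the 2 laminin-binding alpha chains measured in rat cells, 1 was called higher in rat ES cells and 1 was not called. Itga7, whose chain forms a laminin receptor best known from muscle, had log2 signals of 8.70, 8.62 and 8.71 in rat ES cells, against 6.58, 6.14 and 6.08 in fibroblasts. All 3 rat ES arrays lay above every fibroblast array, and the gene was 5.31-fold higher (log2 difference 2.41, SE 0.13, limma adjusted p = 6.89e-07). The 7 measured markers of striated muscle held 0 calls by limma. Of these markers, 6 lay below the array median on all 3 rat ES arrays, and 6 on all 3 fibroblast arrays. Any part of muscle cells in the Itga7 difference was not tested. Itga6, a laminin receptor chain known from mouse ES cells, was at 8.81, 8.89 and 8.98 in rat ES cells, against 7.91, 7.98 and 7.996 in fibroblasts. These groups did not overlap either, but the difference of 0.93 (95% interval 0.76 to 1.09, limma adjusted p = 6.31e-06) fell short of the 2-fold threshold.

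Among 4 collagen-binding alpha chains, 2 were called lower in rat ES cells and 2 were not called. Itga11, a collagen receptor chain of mesenchymal cells, was at 5.71, 5.71 and 5.79 in rat ES cells, against 10.98, 11.04 and 11.06 in fibroblasts. Its rat ES signals sat at the array median, and the gene was 39.1-fold lower there (log2 difference -5.29, SE 0.07, limma adjusted p = 1.72e-09). Itga1, whose chain binds collagens of the basement membrane, was at 4.51, 4.61 and 4.35 in rat ES cells, against 9.25, 9.25 and 9.11 in fibroblasts. It fell by 4.71 on the log2 scale (SE 0.09, limma adjusted p = 3.76e-09). Its rat ES signals lay below the array median. No measure of background was used here, so the size of this difference, and of every other one with a group below the median, is uncertain. Itga2 (3.61 to 3.86 in rat ES cells, 3.82 to 4.27 in fibroblasts) and Itga10 (4.67 to 4.75 and 4.89 to 5.23) lay below the median in both groups and were not called. In rat assembly GRCr8, Itga1 and Itga2 are next to each other among the protein-coding genes of chromosome 2. These neighbouring collagen receptor genes gave log2 differences of -4.71 and -0.29. The low Itga2 signals do not tell a gene that is off from a probe set without response.

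Itga5 and Itga4, the fibronectin-binding alpha chains measured in rat cells, were both called lower in rat ES cells. Itga5, the alpha chain of the classical fibronectin receptor, had log2 signals of 5.18, 5.71 and 5.69 in rat ES cells, against 9.13, 9.11 and 9.02 in fibroblasts. The lowest fibroblast array was far above the highest rat ES array, and the gene was 11.8-fold lower (log2 difference -3.56, SE 0.14, limma adjusted p = 1.15e-07). Itga4, whose chain binds fibronectin and the cell adhesion molecule Vcam1, was at 4.20, 3.58 and 4.01 in rat ES cells, against 8.41, 8.55 and 8.35 in fibroblasts, and fell by 4.51 on the log2 scale (SE 0.15, limma adjusted p = 4.90e-08). The rat ES signals of both genes lay below the array median. The measured difference of fibronectin itself was far smaller, at signals near the top of the arrays. Its mean percentiles among shared genes were 99.8 in rat ES cells and 99.97 in fibroblasts. Whether signals this high still follow the amount of RNA was not tested, so the size of the difference is uncertain. Fn1 was at 12.56, 12.58 and 12.61 in rat ES cells, against 13.42, 13.41 and 13.48 in fibroblasts, a log2 difference of -0.86 (95% interval -0.999 to -0.713, limma adjusted p = 4.33e-06) that stayed under 2-fold. After quantile normalization it was -1.02 and was called.

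Of 8 beta chains, 3 were lower in rat ES cells and none was higher. Itgb1, the partner chain of most alpha chains named above, was at 9.90, 10.03 and 10.04 in rat ES cells, against 12.48, 12.52 and 12.54 in fibroblasts. The gene was 5.75-fold lower (log2 difference -2.52, SE 0.07, limma adjusted p = 1.74e-08), and its rat ES signals remained well above the array median. Itgb3, a beta chain of vitronectin receptors, was at 5.28, 5.43 and 5.17 in rat ES cells, below the array median, against 8.24, 8.05 and 8.12 in fibroblasts, and fell by 2.84 on the log2 scale (SE 0.09, limma adjusted p = 3.72e-08). Itgb5, which pairs with alpha v, was at 7.93, 8.05 and 8.03 in rat ES cells, against 9.36, 9.40 and 9.36 in fibroblasts, and was 2.58-fold lower.

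The other 5 beta chains, Itgb2 of leukocytes, Itgb4 of hemidesmosomes, Itgb6 and Itgb8, which with alpha v activate latent TGF-beta, and Itgb7 of lymphocytes, lay below the array median in both groups on all arrays. None of them was called. Itgb7 varied most among the rat ES arrays, at 4.80, 5.26 and 4.48, against 4.37, 4.33 and 4.53 in fibroblasts (limma adjusted p = 0.0653). Itgb8 did not overlap between the groups (3.06, 3.51 and 3.60 in rat ES cells, 4.16, 4.07 and 4.14 in fibroblasts), with a log2 difference of -0.73 and a limma adjusted p of 0.00135. For Itgb2, Itgb4 and Itgb6 the 95% intervals of the log2 difference ran from -0.32 to 0.09, from -0.14 to 0.27 and from -0.55 to 0.11. These values do not tell a gene that is off from a probe set without response.

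Proteins that bind the beta tail and link it to actin were lower in rat ES cells, with 1 exception that stayed under the threshold. Vcl, encoding vinculin, had log2 signals of 9.30, 9.40 and 9.41 in rat ES cells, against 11.59, 11.60 and 11.64 in fibroblasts. The groups were tight and far apart, and the gene fell by 2.24 on the log2 scale (SE 0.07, limma adjusted p = 2.81e-08), or 4.71-fold. Tln1, encoding the widely expressed talin, was at 8.58, 8.67 and 8.72 in rat ES cells, against 10.58, 10.60 and 10.54 in fibroblasts, and was 3.78-fold lower. Of the kindlins, Fermt2, the widely expressed form, was at 8.62, 8.61 and 8.60 in rat ES cells, against 9.99, 9.82 and 9.87 in fibroblasts (log2 difference -1.28, limma adjusted p = 7.14e-07). Fermt1, the epithelial kindlin, pointed the other way, at 4.90, 4.74 and 4.89 in rat ES cells, against 3.83, 4.03 and 3.88 in fibroblasts. Its log2 difference of 0.93 (95% interval 0.74 to 1.12, limma adjusted p = 1.41e-05) was not called, and both groups lay below the array median.

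In the complex of ILK, PINCH and parvin, the parvins diverged. Parva, alpha-parvin, was at 8.18, 8.12 and 8.26 in rat ES cells, against 10.77, 10.86 and 10.76 in fibroblasts, and was 6.10-fold lower (log2 difference -2.61, SE 0.07, limma adjusted p = 1.74e-08). Parvb, beta-parvin, was at 7.84, 7.86 and 8.06 in rat ES cells, against 6.57, 6.72 and 6.69 in fibroblasts, and was 2.40-fold higher (log2 difference 1.26, SE 0.08, limma adjusted p = 2.58e-06). Neither gene overlapped between the groups, and all arrays lay above the median. Ilk, the pseudokinase scaffold of the complex, was at 9.09, 9.26 and 9.28 in rat ES cells, against 10.97, 10.96 and 10.94 in fibroblasts, and was 3.34-fold lower. Lims2, a PINCH adaptor, was at 8.28, 8.24 and 8.16 in rat ES cells, against 8.12, 8.002 and 8.19 in fibroblasts. These arrays overlapped, and the 95% interval of the log2 difference ran from -0.05 to 0.30.

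**Figure D2:**
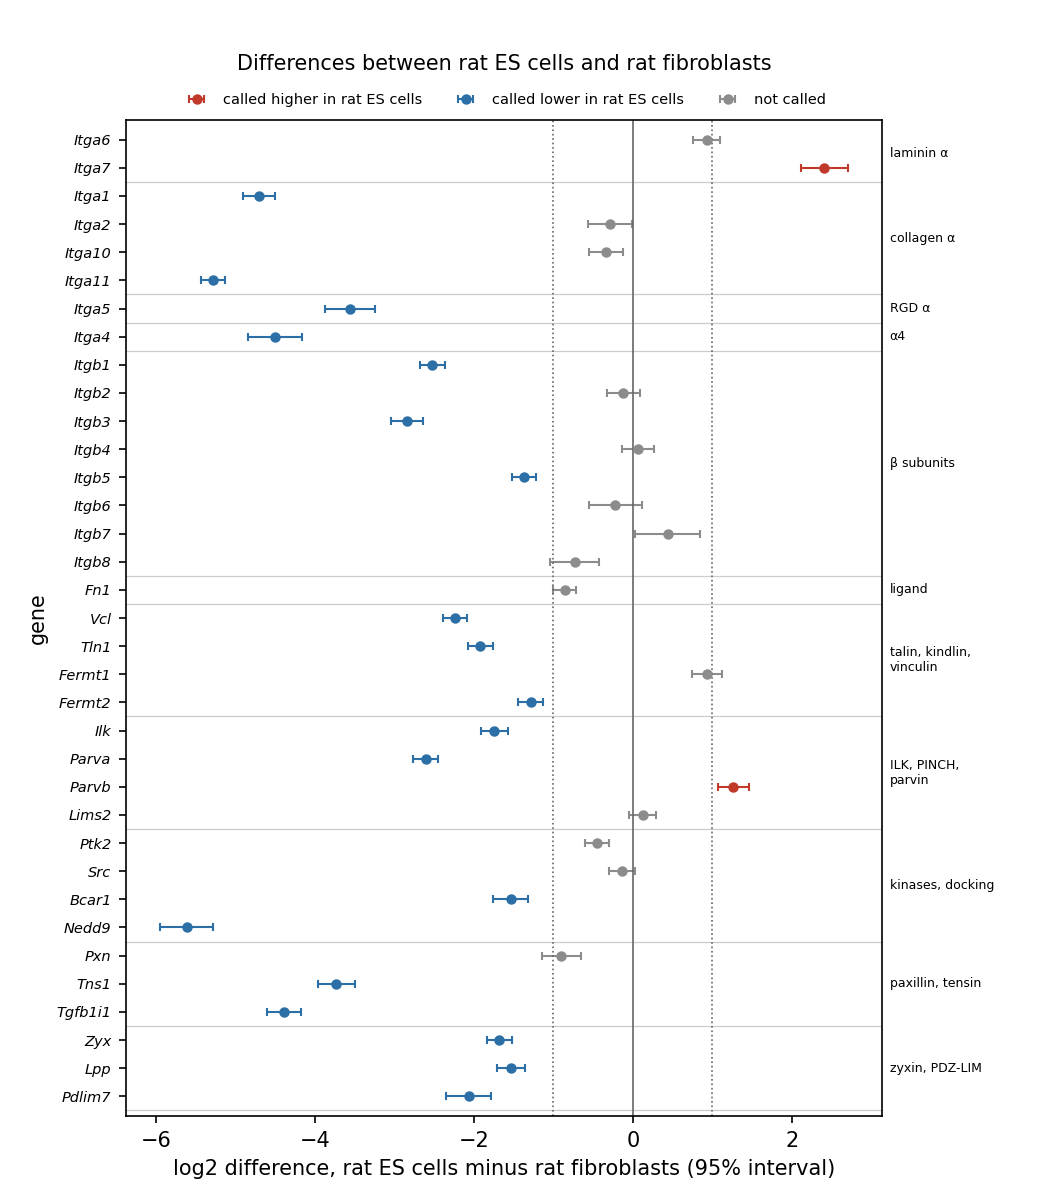
Log2 difference of each gene, rat ES cells minus rat fibroblasts, with its 95% interval from limma, grouped by role. Dotted lines mark 2-fold. Nedd9 (-5.62) and Itga11 (-5.29) lie farthest to the left, and Itga7 (2.41) and Parvb (1.26) are the genes called higher.

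The kinases at the head of the signalling pathway differed little, and their docking proteins differed more. Ptk2, encoding FAK, was at 9.07, 8.96 and 8.95 in rat ES cells, against 9.43, 9.46 and 9.44 in fibroblasts, a log2 difference of -0.45 (95% interval -0.60 to -0.30, limma adjusted p = 3.74e-04). Src was at 8.20, 8.30 and 8.36 in rat ES cells, against 8.37, 8.42 and 8.46 in fibroblasts. Its log2 difference of -0.13 had a 95% interval from -0.29 to 0.03. Neither kinase was called.

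Nedd9, a docking protein of the p130Cas family that FAK and Src phosphorylate, showed the largest difference among the 35 genes. It was at 4.93, 5.44 and 5.50 in rat ES cells, below the array median, against 10.93, 10.94 and 10.84 in fibroblasts, and was 49.0-fold lower (log2 difference -5.62, SE 0.14, limma adjusted p = 1.32e-08). Bcar1, which encodes p130Cas, was at 7.24, 7.39 and 7.58 in rat ES cells, against 8.95, 8.997 and 8.88 in fibroblasts, and was 2.90-fold lower. Of the family members measured here, Nedd9 thus had a log2 difference of -5.62 and Bcar1 one of -1.54.

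The paxillin family was split in size. Tgfb1i1, encoding the paxillin relative Hic-5, was at 4.94, 5.22 and 5.22 in rat ES cells, below the array median, against 9.56, 9.55 and 9.45 in fibroblasts. It was 21.0-fold lower (log2 difference -4.39, SE 0.09, limma adjusted p = 5.94e-09). Pxn, encoding paxillin, was at 7.82, 8.17 and 8.18 in rat ES cells, against 9.05, 8.92 and 8.91 in fibroblasts, and its log2 difference of -0.90 (95% interval -1.15 to -0.66, limma adjusted p = 9.58e-05) was under 2-fold. Tns1, encoding a tensin of mature fibrillar adhesions, was at 6.12, 6.37 and 6.50 in rat ES cells, against 10.11, 10.04 and 10.03 in fibroblasts. Tns1 was 13.3-fold lower (log2 difference -3.73, SE 0.10, limma adjusted p = 1.69e-08).

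The 3 zyxin-like and PDZ-LIM genes, which encode LIM-domain proteins that gather on adhesions under tension, were all called lower in rat ES cells. Zyx, encoding zyxin, was at 8.31, 8.36 and 8.45 in rat ES cells, against 10.04, 10.10 and 10.01 in fibroblasts, and was 3.20-fold lower. Lpp, a zyxin relative, was at 7.88, 8.03 and 8.01 in rat ES cells, against 9.59, 9.50 and 9.42 in fibroblasts, and was 2.89-fold lower. Pdlim7, encoding the PDZ and LIM protein Enigma, was at 7.42, 7.67 and 7.95 in rat ES cells, against 9.73, 9.72 and 9.78 in fibroblasts. It fell by 2.06 on the log2 scale (SE 0.12, limma adjusted p = 1.36e-06), and its rat ES arrays were the more spread.

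The rat ES arrays were not alike in the genes called lower, whether adhesion genes or others. Of the 19 genes called lower, 14 had their lowest rat ES signal on array 1, and 15 had a higher signal on array 3. Matching counts over all genes were not taken. The median of array 3 minus array 1 was 0.14 (log2) over the 19 genes, 0.13 over all 1458 genes called lower and 0.02 over all genes tested. The shift in the 19 genes was thus near that of all genes called lower. The summed fibroblast marker signal given above was also lowest on array 1 and highest on array 3, and its part in these differences was not tested. Without any one of the rat ES arrays the counts were again 19 lower and 2 higher. In bulk cultures, fewer cells of a type and less RNA per cell cannot be told apart.

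Genes around the adhesion machinery were read by 5 further lists. The shares over all genes tested, 10.1% lower and 10.6% higher, are the background for each. Of 27 other scaffold and actin-linking genes, 15 were called lower in rat ES cells and 1 higher, with a median log2 difference of -1.34. The lower genes were led by Cald1 (-4.15), which encodes the actin-binding caldesmon, by Nexn (-3.69), encoding an F-actin-binding protein, and by Fhl2 (-3.26), a LIM-only protein. Ablim1, encoding an actin-binding LIM protein, was the higher one, at 10.93, 10.93 and 10.90 in rat ES cells, against 7.07, 7.01 and 7.01 in fibroblasts, a log2 difference of 3.89 (limma adjusted p = 2.21e-09).

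The signalling list came next. Of 38 other kinases, phosphatases, adaptors and GTPase regulators, 6 were called lower, 2 higher and 30 neither way, with a median of -0.39. Against 10.1% lower and 10.6% higher among all genes, both counts stood near the background for a list of 38. Arhgef6, an exchange factor for Rac and Cdc42 that binds parvin, differed by -3.11, the kinase gene Rock2 by -1.67 and the FAK relative Ptk2b by -1.57, while the receptor phosphatase gene Ptprf differed by 1.49 and the adaptor gene Crkl by 1.03. Whether this list differs from the scaffold list was not tested.

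Of 25 integrin partners, regulators and trafficking genes, 11 were lower and 2 higher, with a median of -0.60. Cav1 (-5.86), encoding caveolin, the endocytic adaptor gene Dab2 (-4.28) and the tetraspanin gene Tspan4 (-2.82) led the lower ones. The tetraspanin Cd9, long used as a surface marker of ES cells, was higher by 2.25 and the calcium and integrin binding gene Cib1 by 1.24 (limma adjusted p = 2.26e-08 and 2.25e-06).

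Among 34 extracellular integrin ligands, 17 were lower and 2 higher, with a median of -1.18. The list shares Col1a1, Col1a2 and Col3a1 with the fibroblast markers above, so its counts are not separate from that marker check. Thbs1 (-7.07), the elastic fibre gene Fbln5 (-6.48) and the fibrillin gene Fbn1 (-5.79) led the lower ligands. Lama1, encoding the laminin chain of the early embryo, was the main exception at a log2 difference of 4.52 (limma adjusted p = 2.39e-09), and Adam9 differed by 1.47. Of 5 measured integrin-like genes outside the list, 4 of leukocytes (Itgad, Itgae, Itgal and Itgam) were not called, and Itgbl1, a secreted protein related to beta chains, differed by -4.45. Over all 5 lists, each gene counted once, 50 of 129 genes were lower and 7 higher, against the shares of 10.1% and 10.6% among all genes.

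**Figure D3:**
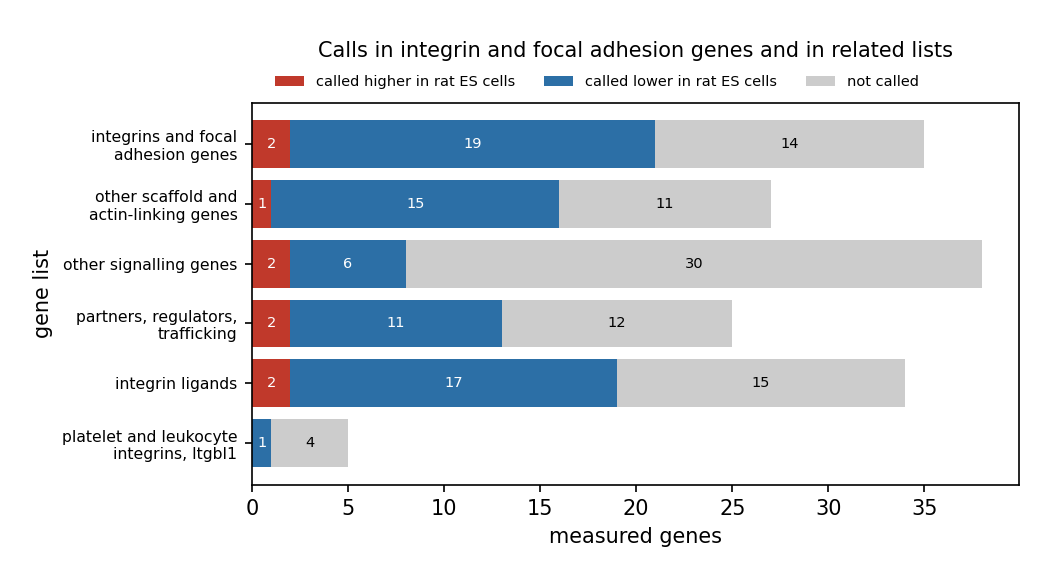
Number of measured genes called higher, called lower and not called in rat ES cells against rat fibroblasts, for the integrins and focal adhesion genes and for 5 related lists. The 35 integrin and focal adhesion genes divide into 2 higher, 19 lower and 14 not called, and 30 of the 38 other signalling genes were not called.

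Mouse ES cells were then set beside rat ES cells by rank, because the tables were normalized separately on different platforms and levels cannot be compared. For each array the genes shared by both tables, 12114 symbols, were ranked and each gene was given its percentile. A gene counted as moved when the 3 mouse and 3 rat ES percentiles did not overlap and their means lay at least 20 points apart. No test was made, and a difference of probes between the platforms cannot be told apart from a difference between the cells. The mouse arrays also share values: of the 40 measured genes, 20 carried a single value across all mouse arrays and 14 repeated a value on 2 of them, so no SD over mouse arrays is given. Probe sets share values too, since the 35557 mouse probe sets hold 16565 to 18500 distinct values per array. Itgb3 and Lpp, for example, were both at 6.18 on the log2 scale on every mouse array and so had equal percentiles. Of 33 genes compared, 5 had a higher percentile in mouse ES cells and 2 a lower one. That is 7 of 33, where 18.7% of all shared genes moved, so the share was near the background. Of these 7, Itga7, Itgb3 and Bcar1 each had a single value on all 3 mouse arrays. Itga5, Itgb7 and Lims2 repeated a value on 2 of them. Percentiles of a repeated value differ only through the ranks of other genes, so they are not separate readings of the gene.

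Itga5 was at percentiles 77.9, 79.0 and 77.6 in mouse ES cells, against 26.7, 36.1 and 35.0 in rat ES cells. The fibroblast arrays stood at 87.5 to 88.5, so in mouse ES cells the fibronectin receptor chain ranked nearer to rat fibroblasts than to rat ES cells. Feeder cells had been removed from the mouse cultures. Of 10 fibroblast markers, 3 were below the array median on all mouse ES arrays and 2 on all rat fibroblast arrays. Any part of feeder cells in this rank was not tested. Itgb3 was at 55.2, 55.8 and 55.1 in mouse ES cells, against 28.3, 31.0 and 26.3 in rat ES cells. Bcar1 stood at 83.9, 85.1 and 83.7 in mouse ES cells, against 59.2, 60.9 and 63.8 in rat ES cells. Bcar1 lay just inside the threshold at 22.9 points, and the collagen receptor chain gene Itga10 just outside it at 19.9. Itgb7, below the rat array median, differed by 25.6 points. Tns1 differed by 46.9 points, but its 6 mouse probe sets disagreed, with mean percentiles of 42.6 to 92.1, and with the mean of all its probe sets it no longer counted as moved.

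Itga7 went the other way and stood at 35.0, 34.5 and 35.1 in mouse ES cells, against 82.9, 81.2 and 82.7 in rat ES cells. Its fibroblast percentiles were 39.9 to 47.8, and mouse ES cells lay below both rat groups for this laminin receptor chain. Lims2 stood at 37.3, 37.6 and 37.5 in mouse ES cells, against 76.7, 75.8 and 74.3 in rat ES cells, and at 72.8 to 76.6 in fibroblasts. Itga6 differed by 2.84 points between mouse and rat ES cells, Ilk by 2.08, Zyx by 1.19, Fermt2 by 0.55 and Src by -1.01.

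The genes that were lower in rat ES cells than in fibroblasts also ranked below fibroblasts in mouse ES cells, in 18 of 18 that could be compared. Over all genes called lower in the rat comparison and shared with the mouse table the same held in 92.4%, which is the share to read it against, and the rat fibroblast arrays entered both the choice of these genes and this comparison. Mouse ES cells were nearer in percentile to rat ES cells than to fibroblasts for 11 of these 18 genes, or 61.1%, and for 74.3% of all genes called lower. Over all 33 genes compared the share nearer rat ES cells was 57.6%, and over all shared genes 57.1%.

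Some genes were measured in mouse ES cells alone, and their percentiles are given among all named mouse genes. Itga3, the third laminin-binding alpha chain, stood at 91.6 and the RGD-binding Itgav at 81.9. Tns3 stood at 94.1, Tln2 at 75.7, Lims1 at 65.9 and Itga9 at 60.5. Itga8 stood at 25.5, with signals below the array median on all 3 mouse arrays.

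**Figure D4:**
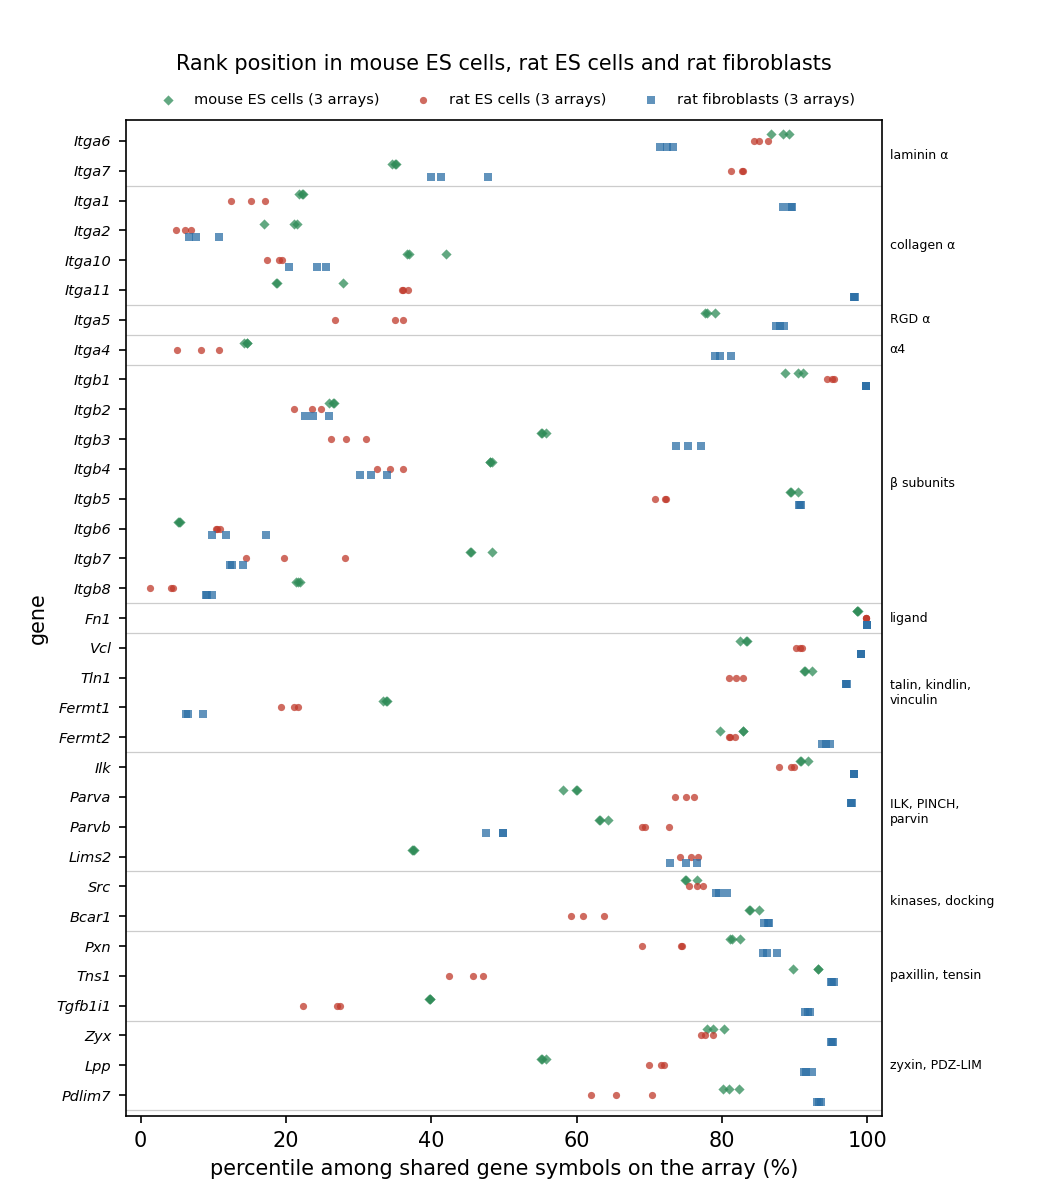
Percentile of each of the 33 genes measured in both tables among the 12114 shared symbols, on the 3 mouse ES arrays (diamonds), the 3 rat ES arrays (circles) and the 3 rat fibroblast arrays (squares). Itga5 and Tns1 lie far to the right in mouse ES cells compared with rat ES cells, and Itga7 and Lims2 far to the left.

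Promoters were read for sequence that the lower genes might share. RefSeq windows of the GRCr8 build, searched over the 250 bases before the gene start on both strands, were found for 24 of the 35 rat genes, with 28 windows in all because some genes have several. The motif GGAATG, which TEAD factors bind, was in 3 of 16 windows of genes called lower (18.8%) and in 3 of 12 windows of the other genes (25%), against 12.1% of all 33469 windows. The CArG box of serum response factor was in 0 of the 16 windows and in 1 of the 12, that of Itgb6, against 1.5% of all windows. The 16 windows cover 14 of the 19 genes called lower. The searched window of Vcl opens with all but the first base of a CArG box, and the base before it was not searched. A match is a description of letters and not a binding site. The 3 windows of lower genes with GGAATG are shown as 100 bases each, 5′ to 3′ on the strand of the gene, with the match in capitals; in Zyx the capitals are the reverse complement.
Itgb1, chr19:73602084-73602183, plus strand: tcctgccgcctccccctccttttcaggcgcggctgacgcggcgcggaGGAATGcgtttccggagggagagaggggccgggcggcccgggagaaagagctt
Vcl, chr15:3404915-3405014, minus strand: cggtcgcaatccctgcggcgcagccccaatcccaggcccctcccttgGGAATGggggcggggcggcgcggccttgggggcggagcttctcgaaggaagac
Zyx, chr4:72203750-72203849, plus strand: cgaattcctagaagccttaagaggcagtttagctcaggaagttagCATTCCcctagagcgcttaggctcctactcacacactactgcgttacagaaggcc
The matches begin 146 bases before the start of Itgb1, 167 before that of Vcl and 205 before the upstream start of Zyx. Zyx has another window, of a start farther downstream, and that window held no match.

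Gene order was read in the same assembly. Of 27 measured protein-coding genes immediately beside a gene called lower, 4 were also called lower (Pelo beside Itga1, Tpm2 and Creb3 beside Tln1, Dbn1 beside Pdlim7), 5 were called higher and 18 were not called. Among all genes 10.1% were called lower and 10.6% higher, so with 27 neighbours both counts stood near the background.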

How the data were processed

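Per the labels' protocols, biotin-labelled single-stranded DNA from total RNA was hybridized with 1 sample per array. The values the authors deposited are on a log2 scale, 1 per probe set, with 6 rat arrays in 1 table and 3 mouse arrays in another. The log2 scale was read from the range of the values, and how background was corrected and arrays were normalized is not stated there. Genes were named through the platform annotation, which can be old: 15310 of 29215 rat and 21789 of 35557 mouse probe sets had 1 symbol, 323 and 1621 had several and were left out, and the rest had none listed. Deposited values were used without further normalization or filter on level.

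Rat ES cells and rat fibroblasts were fitted by group in limma (version 3.58.1, under R 4.3.3), p-values were adjusted over all 14506 genes, and the fit was tested on simulated data. Replicate numbers did not pair the rat groups (correlations of deviations -0.00044, 0.031 and -0.0003). The genes and lists were chosen with earlier results of these data known. All members were accounted for by role, and up to 3 called genes per direction of each related list and the members that moved between species are named. Protein sequences were not used here. RefSeq tables of GRCr8 gave the promoter sequences and the gene order. Alternatives were quantile normalization, median centring, filters on level, other summaries of probe sets, a trended robust variance model, stricter and looser thresholds, a replicate block and leaving out each array.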

Additional observations from a re-analysis of the deposited data

How the results depend on the processing

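The 21 calls among the integrin and focal adhesion genes were kept under quantile normalization, median centring, a filter that kept genes above the 25th percentile, averaged or separate probe sets, a trended robust variance model, an adjusted p under 0.01 and without each array. Fn1 was added by quantile normalization, at -1.02. A filter at the median left Itga4 out of the fit, so that 18 were lower. With no fold threshold, 4 were higher and 24 lower, with 8172 calls among all genes and 97 in the related lists. With a log2 difference of at least 2, 1 was higher and 12 lower, with 995 calls among all genes and 33 in the related lists. Leaving out 1 array gave 2 higher and 19 lower every time, 2994 to 3035 calls among all genes and 56 to 58 in the related lists. With the replicate number as a block, 2 were higher and 19 lower, with 2996 calls among all genes and 57 in the related lists, and no call of these genes changed. Between mouse and rat ES cells, 18 of 33 genes moved at 10 points, where 45% of all genes did, and 4 at 30 points, where 7.41% did. Percentiles among all named genes gave 9 of 33 (17.6% of all genes), and 10 of 23 moved after a filter at the 25th percentile in both species (28.7%). Averaged probe sets gave 8 of 33 (19.3%), with Itga10 and Lpp added and Tns1 lost. The 3 mouse probe sets of Lpp had mean percentiles of 1.8, 38.9 and 55.3. Leaving out 1 array gave 7 to 8. Among the 6 genes with 3 different mouse values, 1 moved, Tns1. All 3 rat ES signals lay below the array median in 6 of the 19 decreases, whose size is therefore uncertain. Itga11 and Tns1 had mean rat ES percentiles of 36.3 and 45.1 among shared genes, so the size of their decreases is uncertain too.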
